A study of Homo sapiens with 24 samples.

Results

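The genes described here encode the DNA replication machinery, taken as a fixed list of 48 symbols across all 24 libraries of the study. All 48 were found once among the 60675 gene identifiers listed per library, and all 48 passed the filter on low counts that left 20668 genes for testing. By role they are 14 genes of origin licensing, 9 of helicase assembly and firing, 9 of the polymerases, 6 of the sliding clamp and its loader, 5 of single-strand binding, flap removal and ligation, and 5 of chromatin assembly and fork protection. Replication starts when the origin recognition complex, CDC6 and CDT1 load the MCM2-7 helicase ring onto DNA in G1. CDC45 and the GINS complex then turn the ring into the active CMG helicase in S phase, and polymerase alpha-primase, the RFC-loaded PCNA clamp and the polymerases delta and epsilon copy the strands. Many of these genes are transcribed under E2F control late in G1, and p53 acts on the same step through CDKN1A, an inhibitor of the cyclin-dependent kinases.

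The cells were HCT116, an established human colorectal cancer line, in 3 versions that differ in p53: they are labelled as wild type (WT), mutant (Mutant) and null (Null). The 4 treatments were solvent alone, APR-246 at 20 uM, irradiation with 6 Gy, and the combination, in which APR-246 was given before the irradiation. APR-246 is a compound developed to restore activity to mutant p53. Cells of the irradiation arms were taken 72 hours after irradiation, and each of the 12 groups has 2 libraries. The mutation of the Mutant line and the length of exposure to APR-246 are not given in the sources used here. Each p53 status is represented by 1 line, so p53 status and any other difference between lines cannot be told apart. The labels do not state that replicates were separate cultures, so p-values measure only the spread between these samples, which may be technical. In bulk RNA, more cells in S phase and more RNA per cell cannot be told apart.

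Libraries held 53184139 to 58058729 reads assigned to genes, recovered from the deposited CPM, which scale each library to the same total. CDKN1A rose after irradiation in WT, from 508 and 582 CPM in solvent to 2253 and 2162 CPM (log2 difference 2.02 ± 0.40 SE, limma adjusted p = 0.0190). In Mutant, CDKN1A was 181 and 240 CPM in solvent and 182 and 183 CPM after irradiation (-0.10 ± 0.40, adjusted p = 0.923). Of the other cell types' markers, 7 genes of blood cells summed to 0.242 to 2.40 CPM per library. The 7 fibroblast genes summed to 11.8 to 69.2 CPM, of which COL1A1 made up 11.5 to 67.9 CPM, while 8 epithelial genes summed to 4933 to 17463 CPM. Libraries differed in composition within groups: replicate 2 had the higher slope of log2 level on gene GC percent in 11 of 12 groups, and trimmed-mean (TMM) scaling multiplied the deposited CPM by 0.782 to 1.35. All values below called scaled CPM carry this factor. GC-rich members such as CDT1 differed strongly between the solvent replicates of each line, and their tests have wide errors. The part of the GC slope, or of the marker genes, in the results below was not tested beyond the fits with a GC slope.

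The promoters of 42 members are in the RefSeq table used (GRCh38.p14, 250 bases before to 50 after each start, 52 starts). They are shown because a sequence feature that the choice of genes did not use is more frequent in them than in all promoters. The E2F spellings TTTCCCGC, TTTCGCGC, TTTGCCGC and TTTGGCGC, searched on both strands, occurred in 21 of 52 member promoters (40.4%) and in 1164 of all 35116 promoters of the table (3.31%). CCAAT occurred in 55.8% of member promoters and 34.6% of all. The spellings TTTGAA and TTCGAA, known from promoters of mitotic genes, occurred in 3.85% and 16.4%. 4 examples follow, each 5′ to 3′ on the gene's strand with E2F matches in capitals: MCM6, a helicase subunit with 4 matches in 2 overlapping pairs; PCNA, the clamp, with 1 match; CDC6, a licensing factor with 1 match; and ORC2, an origin recognition subunit with none. The MCM6 window is chr2:135876394-135876693 on the minus strand, PCNA chr20:5126573-5126872 minus, CDC6 chr17:40287629-40287928 plus, and ORC2 chr2:200963611-200963910 minus.
MCM6: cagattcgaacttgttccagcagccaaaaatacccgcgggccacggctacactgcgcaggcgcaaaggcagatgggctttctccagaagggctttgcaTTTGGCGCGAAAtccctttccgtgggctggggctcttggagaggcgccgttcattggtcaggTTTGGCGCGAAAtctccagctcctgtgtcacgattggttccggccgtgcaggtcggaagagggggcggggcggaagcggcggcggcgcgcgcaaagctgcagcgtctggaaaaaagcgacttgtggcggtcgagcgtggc
PCNA: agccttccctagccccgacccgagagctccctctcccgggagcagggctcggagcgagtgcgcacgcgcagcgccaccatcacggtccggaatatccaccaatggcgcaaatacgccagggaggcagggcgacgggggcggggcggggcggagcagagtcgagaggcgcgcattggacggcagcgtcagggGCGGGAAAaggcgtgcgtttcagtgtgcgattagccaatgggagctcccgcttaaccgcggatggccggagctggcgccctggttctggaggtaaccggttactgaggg
CDC6: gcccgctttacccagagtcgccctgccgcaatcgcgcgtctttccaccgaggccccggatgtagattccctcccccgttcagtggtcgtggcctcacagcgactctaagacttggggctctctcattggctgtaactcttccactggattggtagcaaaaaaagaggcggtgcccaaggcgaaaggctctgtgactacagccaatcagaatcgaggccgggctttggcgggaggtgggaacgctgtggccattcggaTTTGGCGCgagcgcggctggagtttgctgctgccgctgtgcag
ORC2: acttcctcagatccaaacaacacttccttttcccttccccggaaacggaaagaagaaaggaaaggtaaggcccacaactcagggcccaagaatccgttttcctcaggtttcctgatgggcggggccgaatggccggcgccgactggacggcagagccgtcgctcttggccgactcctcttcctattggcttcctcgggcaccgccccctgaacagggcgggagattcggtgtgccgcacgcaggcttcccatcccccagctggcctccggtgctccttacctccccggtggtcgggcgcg

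The level of the members was higher in most treated libraries than in the solvent libraries of the same line. For each library, the median over the 48 members was taken relative to the mean of the line's 2 solvent libraries, on the log2 scale. In Mutant the medians were 0.77 and 1.27 under APR-246, 0.81 and 0.88 after irradiation, and 0.98 and 1.13 under the combination. In Null they were 0.63 and 0.71, 0.29 and 0.53, and 0.68 and 0.81. In WT they were -0.03 and 0.37 after irradiation, a range that overlapped with Null, and 0.13 and 0.27 under the combination, below the other lines. Its APR-246 libraries stood apart from each other, at -0.05 and 0.84. The solvent libraries lay between -0.08 and 0.08, and the medians of all genes tested between -0.08 and 0.04 in every library. WT APR-246 replicate 1 thus resembled solvent for these genes. Of 21 members that exceeded every solvent library in exactly 5 of the 6 APR-246 libraries, the remaining library was WT APR-246 replicate 1 for all 21. The same count was not taken over all genes, so whether it is particular to the members was not tested.

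**Figure D1:**
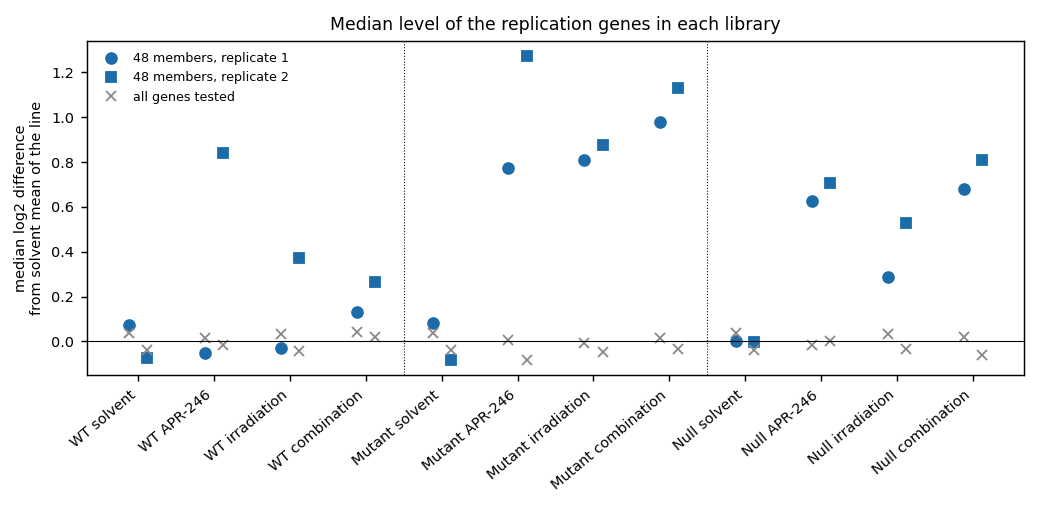
Median log2 difference of the 48 replication genes from the mean of the line's solvent libraries (y axis), for each of the 24 libraries grouped by line and treatment (x axis). Circles and squares are replicates 1 and 2, and crosses the median over all 20668 genes tested; the WT APR-246 libraries lie at -0.05 and 0.84, while all 6 treated Mutant libraries lie at or above 0.77.

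Averaged over the 3 lines, 17 of 48 members rose under APR-246 and none fell (limma, with the Benjamini-Hochberg threshold at 0.05 across the genes tested). Of all genes tested 1.19% rose and 1.95% fell. The members' median log2 difference was 0.73, with 43 above 0, against -0.01 over all genes, of which 48.6% lay above 0. After irradiation 12 members rose and none fell, beside 6.84% and 6.13% of all genes, with a median of 0.56 and 38 above 0 (48.9% of all genes). Under the combination 21 rose and none fell, beside 7.63% and 6.29%, with a median of 0.70 and 43 above 0 (50.7% of all genes). The 3 comparisons share the solvent libraries, so their values stand side by side and are not independent. The difference was positive in each of the 3 lines for 38 members under APR-246, 31 after irradiation and 30 under the combination. The same count was not taken over all genes. The counts move with single libraries. The APR-246 count was 4 without Mutant APR-246 replicate 2, 5 without Null APR-246 replicate 2, 6 without WT APR-246 replicate 2, 7 without WT solvent replicate 2, 8 without Mutant solvent replicate 2, 9 without either Null solvent library and 11 without Null APR-246 replicate 1. The irradiation count was 7 without WT irradiation replicate 2, Null solvent replicate 1 or Null irradiation replicate 2, and the combination count 13 without WT combination replicate 2. MCM4, GINS1, PCNA and FEN1 kept their call in all 12 leave-one-out fits of each of the 3 comparisons. All 12 fits kept 4 of the 17 calls under APR-246, 6 of the 12 after irradiation and 13 of the 21 under the combination. The calls kept in 3 or fewer were those of CDC45, RPA1 and GMNN under APR-246, ORC6, RFC5 and RPA1 after irradiation, and MCM6 and PRIM1 under the combination.

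**Figure D2:**
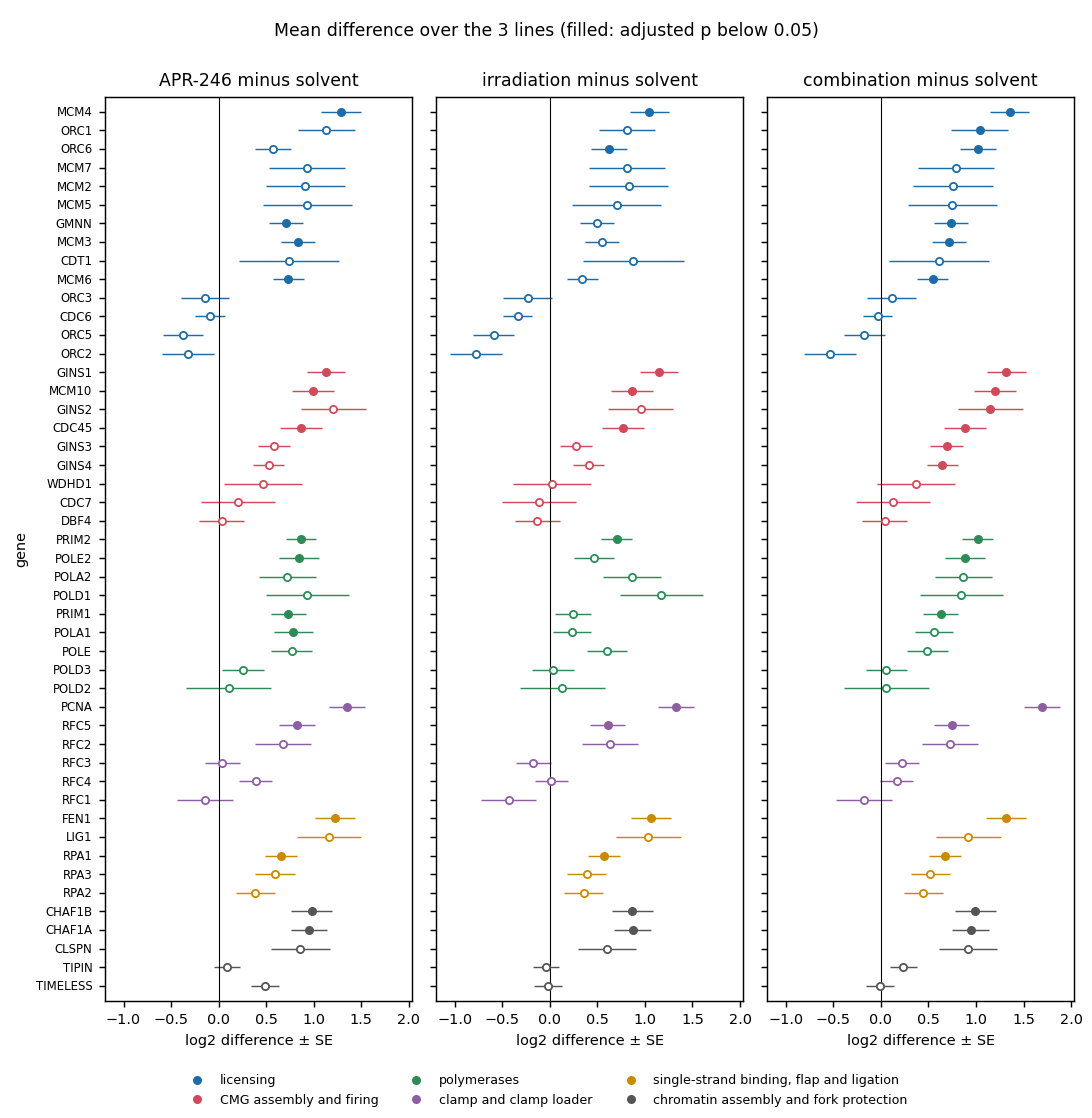
Log2 difference from solvent averaged over the 3 lines, with its standard error (x axis), for each of the 48 genes (y axis, coloured by role), in 3 panels for APR-246, irradiation and combination. Filled points have an adjusted p below 0.05: 17, 12 and 21 genes, all to the right of 0, with PCNA farthest right in each panel, while ORC2, ORC5 and RFC1 lie left of 0 in each.

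Of the 14 licensing genes, 4 rose under APR-246, 2 after irradiation and 6 under the combination. All 6 genes of MCM2-7 had positive differences under each treatment averaged over lines, with medians of 0.92, 0.76 and 0.75 for APR-246, irradiation and combination. MCM4 rose in all 3 comparisons. Its scaled CPM was 77.3 and 55.0 in WT solvent, 55.8 and 46.5 in Mutant solvent, and 79.0 and 66.0 in Null solvent. Under APR-246 the values were 64.8 and 163, 147 and 221, and 164 and 221 for the lines in that order. The WT replicate 1 value lay among the solvent values, and the other 5 lay above all of them. After irradiation the 6 libraries held 93.3 to 161 with a median of 141, and under the combination 99.3 to 212 with a median of 180, both above every solvent library. The log2 differences were 1.29 ± 0.21 (adjusted p = 0.00647), 1.05 ± 0.21 (0.00393) and 1.35 ± 0.21 (0.000590). MCM3 and MCM6 rose under APR-246 (0.83 ± 0.18, adjusted p = 0.0185, and 0.73 ± 0.16, 0.0217) and under the combination (0.72 ± 0.18, 0.0141, and 0.55 ± 0.16, 0.0358). MCM6 held 46.8 to 64.4 scaled CPM in solvent (median 52.5), 55.5 to 116 under APR-246 (median 96.2) and 56.0 to 102 under the combination (median 85.0), so the groups overlapped.

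MCM2, MCM5 and MCM7, the GC-rich subunits of the ring (56.4 to 58.1% GC), had differences as large but were not called. MCM2 held 80.04 and 178 scaled CPM in WT solvent, 78.9 and 185 in Mutant solvent and 105 and 215 in Null solvent. Under APR-246 it held 83.1 and 287, 207 and 590, and 277 and 259 in the same lines. Replicate 2 was the higher solvent library in every line, and the groups overlapped in WT. The difference averaged over lines was 0.91 ± 0.42 (adjusted p = 0.302), and 0.80 (adjusted p = 0.000628) when each library's GC slope was a covariate. CDT1, the loader of the ring, had the highest GC content of the members at 65.2%. It held 106 and 410 scaled CPM in WT solvent, 97.8 and 362 in Mutant solvent and 216 and 660 in Null solvent. The irradiation values were 156 and 500, 508 and 669, and 363 and 888. Irradiated and solvent libraries overlapped in WT and Null but not in Mutant. The differences averaged over lines were 0.74 ± 0.53 (adjusted p = 0.577), 0.88 ± 0.53 (0.291) and 0.61 ± 0.53 (0.5) for the 3 treatments.

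The origin recognition subunits split. ORC1 and ORC6, whose levels change with the cell cycle in human cells, were higher, and ORC2, ORC3 and ORC5 were not. ORC1 held 7.5 to 17.1 scaled CPM in solvent (median 11.3), 8.70 to 46.8 under APR-246 (29.8), 8.62 to 29.6 after irradiation (22.4) and 10.3 to 40.2 under the combination (26.4). It rose under the combination (1.04 ± 0.30, adjusted p = 0.0296) and had 1.13 ± 0.30 (0.0503) under APR-246. ORC6 held 5.81 to 18.4 in solvent (12.7), 13.3 to 25.7 after irradiation (16.9) and 16.2 to 34.0 under the combination (24.8). It rose after irradiation (0.62 ± 0.19, 0.0410) and under the combination (1.02 ± 0.19, 0.00220). The irradiation call was kept in 2 of 12 leave-one-out fits and was not made by edgeR (adjusted p = 0.0528). These groups overlapped with solvent for both genes.

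ORC2 had a negative difference in all 3 lines under each of the 3 treatments. Its scaled CPM was 26.2 and 16.8 in WT solvent, 28.3 and 18.2 in Mutant solvent and 30.5 and 18.9 in Null solvent. After irradiation it was 18.5 and 10.99, 14.3 and 9.37, and 16.5 and 10.5, so both irradiated libraries lay below both solvent libraries in Mutant and Null and the groups overlapped in WT. The differences were -0.33 ± 0.27 (adjusted p = 0.664), -0.77 ± 0.27 (0.0742) and -0.53 ± 0.27 (0.227) for APR-246, irradiation and combination, and none was called. With the GC slope as a covariate, ORC2 (41.0% GC) gave -0.45 with an adjusted p of 0.00257 after irradiation. ORC5 gave -0.37 ± 0.21, -0.59 ± 0.21 and -0.17 ± 0.21, with adjusted p from 0.0789 to 0.659.

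CDC6, which loads the ring together with ORC and CDT1, was not called under any treatment averaged over lines. Its promoter, like that of PCNA, has 1 E2F match. Its scaled CPM was 64.9 and 48.3 in WT solvent, 54.4 and 41.9 in Mutant solvent and 78.7 and 52.6 in Null solvent. The 6 libraries of each treatment spanned 40.8 to 69.9 (median 52.4) under APR-246, 31.3 to 67.3 (46.0) after irradiation and 37.3 to 82.2 (56.3) under the combination. All overlapped with solvent, with differences of -0.09 ± 0.15, -0.34 ± 0.15 and -0.03 ± 0.15 (adjusted p = 0.865, 0.163 and 0.922). In WT irradiation CDC6 held 31.3 and 31.7, below both solvent libraries, with a difference of -0.82 ± 0.27 (adjusted p = 0.158). GMNN, the inhibitor of CDT1, rose under APR-246 (0.71 ± 0.18, 0.0404) and under the combination (0.74 ± 0.18, 0.0113). GMNN held 9.77 to 14.3 scaled CPM in solvent and 15.9 to 27.8 under the combination, without overlap, and its WT APR-246 replicate 1 value of 11.9 lay within the solvent range.

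**Figure D3:**
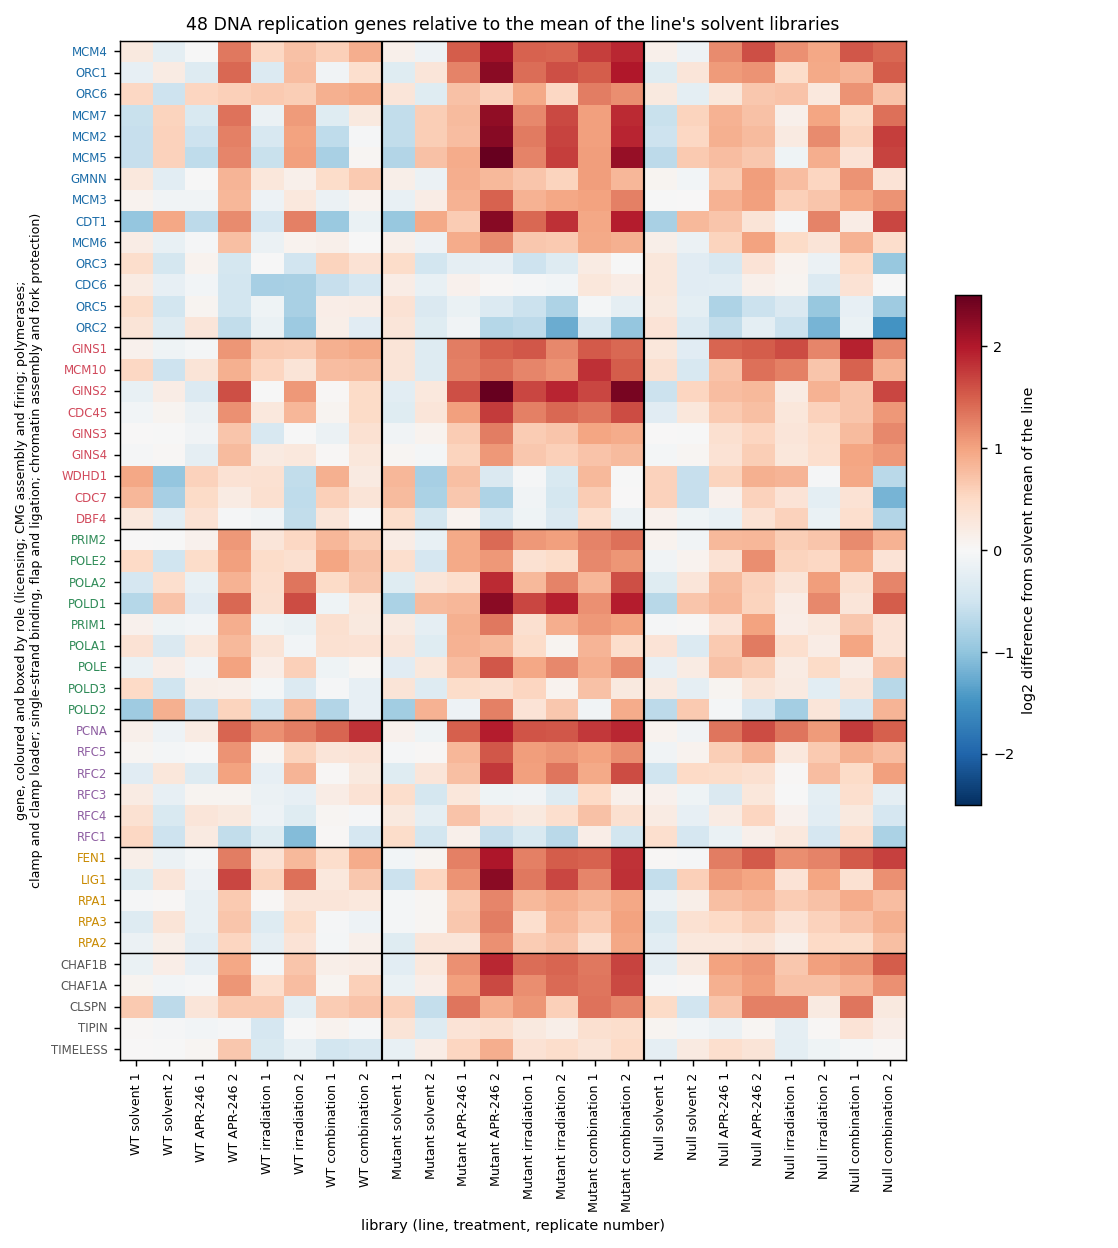
Log2 level of the 48 genes (rows, boxed and coloured by role) in each of the 24 libraries (columns), relative to the mean of the 2 solvent libraries of the same line; red is higher and blue lower, and the scale ends at 2.5. Treated Mutant and Null libraries are mostly red, WT APR-246 replicate 1 is close to its solvent libraries, and ORC2, ORC5, RFC1 and CDC6 stay pale or blue; the gradient between replicates 1 and 2 is visible in CDT1, MCM5, POLD1 and POLD2.

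In helicase assembly and firing, all 9 members had positive differences under APR-246 and under the combination averaged over lines, and 7 of 9 after irradiation. GINS1, a subunit of the GINS complex, rose in all 3 comparisons. Its scaled CPM was 12.1 and 10.4 in WT solvent, 12.8 and 8.02 in Mutant solvent and 12.97 and 8.61 in Null solvent. After irradiation it was 17.9 and 17.8, 30.9 and 23.8, and 33.9 and 25.1, and under the combination 21.1 and 22.1, 30.4 and 28.2, and 41.3 and 24.9. All 12 of these libraries lay above every solvent library. The differences were 1.13 ± 0.20 (adjusted p = 0.00842) under APR-246, 1.15 ± 0.20 (0.00192) after irradiation and 1.32 ± 0.20 (0.000603) under the combination.

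GINS2, its partner subunit, had a larger spread. It held 13.8 and 18.2 scaled CPM in WT solvent, 8.73 and 12.8 in Mutant solvent and 18.1 and 38.5 in Null solvent, against 12.5 and 49.7, 33.5 and 74.0, and 45.6 and 46.7 under APR-246. The groups overlapped in WT and did not in Mutant or Null. GINS2 rose under the combination (1.15 ± 0.34, adjusted p = 0.0337) and gave 1.21 ± 0.34 (0.0661) under APR-246. GINS3 and GINS4 rose under the combination (0.69 ± 0.17, 0.0127, and 0.65 ± 0.16, 0.0151). GINS4 held 6.87 to 8.73 in solvent (median 7.47) and 7.42 to 18.5 under the combination (12.4), overlapping only through WT combination replicate 1. CDC45, the third component of the CMG helicase, and MCM10, which activates it, rose in all 3 comparisons: CDC45 by 0.86 ± 0.22, 0.77 ± 0.22 and 0.88 ± 0.22, MCM10 by 0.99 ± 0.22, 0.86 ± 0.22 and 1.2 ± 0.22, for APR-246, irradiation and combination, with adjusted p from 0.00212 to 0.0442.

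The kinase that fires origins was not called. DBF4, its activating subunit, held 9.51 to 19.2 scaled CPM in solvent (median 12.7), 10.5 to 16.4 under APR-246 (13.1), 7.32 to 19.1 after irradiation (10.999) and 7.43 to 18.9 under the combination (13.4). The ranges overlapped, with differences of 0.03 ± 0.24, -0.13 ± 0.24 and 0.04 ± 0.24 (adjusted p from 0.757 to 0.975). CDC7, the catalytic subunit, gave 0.21 ± 0.39, -0.11 ± 0.39 and 0.13 ± 0.39. WDHD1, which links the helicase to polymerase alpha, was not called either, at 0.46 ± 0.41, 0.03 ± 0.41 and 0.37 ± 0.41. All 3 are GC-poor (39.3 to 40.7% GC) and lower in solvent replicate 2 than replicate 1 in every line.

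Among the polymerases PRIM1, PRIM2, POLE2 and POLA1 were called in at least 1 comparison. All leave-one-out fits kept the calls of PRIM2 after irradiation and under the combination, and of POLE2 under the combination. The other calls were each lost in some of these fits. PRIM2, the large primase subunit, rose in all 3 comparisons (0.87 ± 0.16, adjusted p = 0.0100; 0.71 ± 0.16, 0.00984; 1.02 ± 0.16, 0.000787). It held 8.45 to 13.1 scaled CPM in solvent (median 10.1) and 14.5 to 28.8 under the combination (23.1), without overlap. PRIM1, the catalytic primase subunit, and POLE2, an accessory subunit of polymerase epsilon, rose under APR-246 (0.73 ± 0.19, 0.0417, and 0.84 ± 0.21, 0.0395) and under the combination (0.63 ± 0.19, 0.0344, and 0.88 ± 0.21, 0.0111). PRIM1 held 3.65 to 6.01 in solvent and 6.23 to 9.80 under the combination, without overlap. POLA1, the catalytic subunit of polymerase alpha, rose under APR-246 (0.78 ± 0.20, 0.0457), from 7.02 to 14.9 in solvent (median 10.6) to 13.3 to 22.9 (20.5), with overlap.

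The polymerase delta subunits were not called under any treatment averaged over lines. POLD1, the catalytic subunit, held 54.6 and 148 scaled CPM in WT solvent, 49.8 and 151 in Mutant solvent and 88.2 and 229 in Null solvent. After irradiation it held 118 and 281, 276 and 337, and 162 and 329. Irradiated and solvent libraries overlapped in WT and Null but not in Mutant, and the difference averaged over lines was 1.17 ± 0.43 (adjusted p = 0.0867), or 0.63 (0.000207) with the GC slope. POLD2, an accessory subunit, held 171 to 708 in solvent (median 442) and 213 to 792 under APR-246 (387), a difference of 0.11 ± 0.45 (0.953). POLD3 gave 0.25 ± 0.22 under APR-246. POLE, the catalytic epsilon subunit, gave 0.77 ± 0.21 (0.0621) and POLA2 0.72 ± 0.30 (0.245) under APR-246.

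PCNA, the sliding clamp, had the largest difference of the 48 members in each of the 3 comparisons averaged over lines. Its scaled CPM was 76.1 and 64.0 in WT solvent, 55.8 and 47.9 in Mutant solvent and 70.1 and 61.6 in Null solvent. Under APR-246 it was 80.1 and 193, 147 and 203, and 168 and 205. After irradiation it was 156 and 170, 155 and 152, and 167 and 139, and under the combination 191 and 245, 177 and 193, and 223 and 186. All 18 treated libraries lay above all 6 solvent libraries, and PCNA was the only member for which this held under APR-246. It rose by 1.35 ± 0.19 (adjusted p = 0.00385), 1.33 ± 0.19 (0.000565) and 1.69 ± 0.19 (0.000116) on the log2 scale. PCNA is also a known target of p53. Its difference was positive in each of the 3 lines, and any part of p53 in it was not tested. In WT under APR-246, replicate 1 (80.1) lay close to the higher solvent library (76.1).

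The clamp loader moved less evenly than the clamp. RFC5 rose in all 3 comparisons (0.82 ± 0.18, adjusted p = 0.0233; 0.61 ± 0.18, 0.0400; 0.74 ± 0.18, 0.0140), and the 3 calls were kept in 5, 1 and 12 of 12 leave-one-out fits. RFC5 held 18.3 to 24.5 scaled CPM in solvent (median 19.8), 20.4 to 40.4 after irradiation (32.7) and 24.6 to 42.6 under the combination (38.5), the last without overlap. RFC3 held 9.90 to 18.7 in solvent (13.8), 11.3 to 17.8 under APR-246 (12.8) and 12.4 to 19.6 under the combination (15.3), with differences of 0.04 ± 0.18, -0.17 ± 0.18 and 0.22 ± 0.18 that were not called. RFC1, the large subunit, gave -0.14 ± 0.29, -0.43 ± 0.29 and -0.18 ± 0.29, and RFC4 0.39 ± 0.18, 0.02 ± 0.18 and 0.16 ± 0.18. RFC2 gave 0.68 ± 0.29, 0.63 ± 0.29 and 0.73 ± 0.29 (adjusted p from 0.115 to 0.266).

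FEN1, the flap endonuclease of Okazaki fragment processing, rose in all 3 comparisons. Its scaled CPM was 39.5 and 32.4 in WT solvent, 34.6 and 38.0 in Mutant solvent and 35.8 and 33.9 in Null solvent, a narrow range. Under APR-246 it was 34.6 and 87.8, 87.1 and 149, and 85.7 and 102, and under the combination 48.9 and 68.4, 101 and 129, and 101 and 115. Only WT APR-246 replicate 1 lay within the solvent range. The differences were 1.22 ± 0.21 (adjusted p = 0.00718), 1.06 ± 0.21 (0.00395) and 1.32 ± 0.21 (0.000796). LIG1, the ligase that seals the fragments, gave 1.16 ± 0.34 (0.0763), 1.04 ± 0.34 (0.0553) and 0.92 ± 0.34 (0.0857) and was not called. RPA1, the large subunit of the single-strand binding complex, rose in all 3 (0.65 ± 0.16, 0.0395; 0.57 ± 0.16, 0.0314; 0.67 ± 0.16, 0.0121). RPA1 held 91.0 to 112 scaled CPM in solvent, 113 to 203 after irradiation and 132 to 210 under the combination. RPA2 gave 0.38 ± 0.20, 0.35 ± 0.20 and 0.44 ± 0.20, and held 36.5 to 60.4 in solvent and 38.5 to 101 under APR-246.

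**Figure D4:**
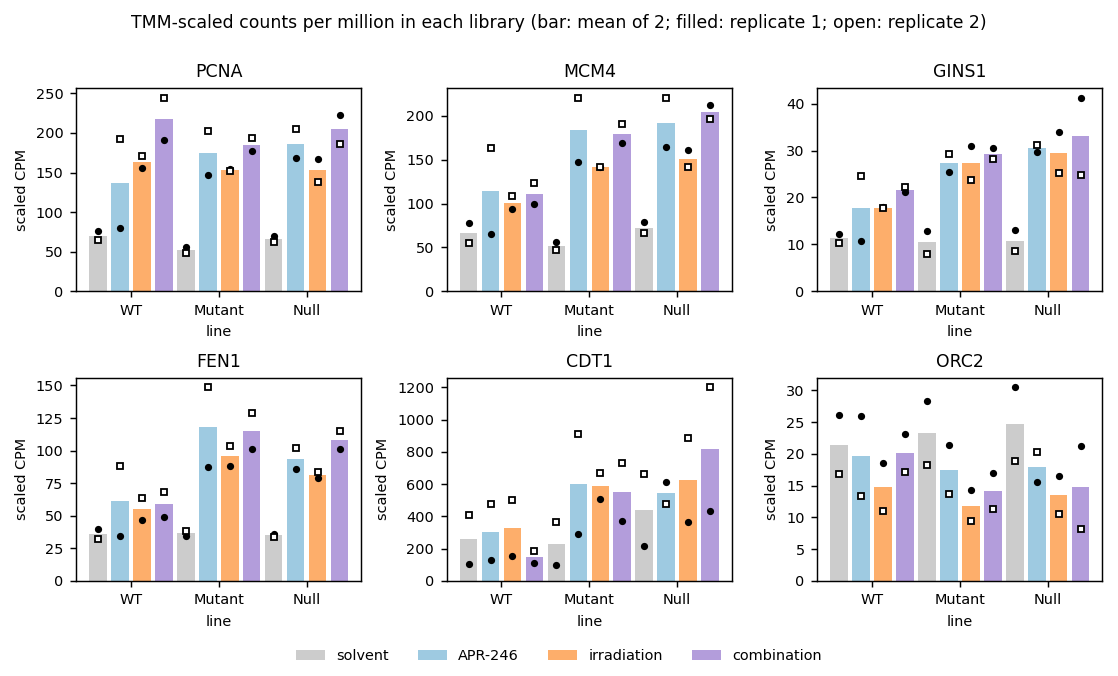
TMM-scaled CPM (y axis, from 0) of PCNA, MCM4, GINS1, FEN1, CDT1 and ORC2 in the 12 groups (x axis, by line; bar colour gives the treatment). Bars are means of 2 libraries and points the libraries (filled, replicate 1; open, replicate 2). PCNA exceeded its solvent libraries in all 18 treated libraries, CDT1 overlapped between groups, and ORC2 was lower or overlapped.

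Of the chromatin assembly and fork protection genes, the CAF-1 subunits, which place histones behind the fork, rose, and TIMELESS, TIPIN and CLSPN were not called. CHAF1A and CHAF1B rose in all 3 comparisons, CHAF1A by 0.95 ± 0.19, 0.87 ± 0.19 and 0.94 ± 0.19 and CHAF1B by 0.98 ± 0.22, 0.87 ± 0.22 and 0.99 ± 0.22 (adjusted p from 0.00409 to 0.0205). CHAF1B held 12.6 to 29.4 scaled CPM in solvent (median 19.9) and 17.1 to 57.6 under APR-246 (44.6), with overlap. TIPIN held 5.29 to 9.09 in solvent (8.24) and 7.66 to 9.03 under APR-246 (8.29), a difference of 0.09 ± 0.14 (0.848). CLSPN, an adaptor of the replication checkpoint, gave 0.86 ± 0.31 (0.160), 0.60 ± 0.31 (0.210) and 0.92 ± 0.31 (0.0590). TIMELESS, the partner of TIPIN, gave 0.49 ± 0.15 (0.0870) under APR-246, -0.02 ± 0.15 (0.953) after irradiation and -0.01 ± 0.15 (0.984) under the combination.

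Within single lines 0 to 4 members were called. With the GC slope as a covariate the calls in either direction for APR-246, irradiation and combination numbered 0, 4 and 7 in WT. They numbered 37, 23 and 38 for Mutant, and 24, 17 and 26 for Null. The share of all genes called in that fit is not given beside these counts, so they do not show how far the members stand apart. For 4, 13 and 14 of 48 members in WT, both treated libraries lay above both solvent libraries under APR-246, irradiation and combination, beside 8.51%, 16.5% and 21.3% of all genes. In WT under APR-246 no gene at all was called (0% of genes tested, in either direction). The members' median was 0.37 with 41 above 0 (52.0% of all genes), 0.85 without WT APR-246 replicate 1 and -0.04 without replicate 2, and PCNA had the largest difference at 0.83 ± 0.34 (adjusted p = 1). At an unadjusted p of 0.05, 1 member passed, beside 557 of all genes, and edgeR and DESeq2 called no gene at all. After irradiation in WT no member was called, beside 0.968% of genes higher and 0.590% lower, with a median of 0.22 (0.066 with the GC slope) and 32 above 0 (49.7% of all genes). Unadjusted, 2 members passed, beside 2526 of all genes. edgeR called no member and DESeq2 2, beside 130 and 822 of all genes. PCNA was again largest at 1.22 ± 0.34 (0.0843). Under the combination in WT, PCNA rose by 1.62 ± 0.34 (0.0154), the 1 call beside 1.30% of genes higher and 0.929% lower, with a members' median of 0.17 (0.43 without TMM scaling) and 35 above 0 (53.7% of all genes). The PCNA call was lost without WT solvent replicate 2 or without either combination library.

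In Mutant the members' medians were 1.08 under APR-246, 0.79 after irradiation and 1.07 under the combination, with 42, 39 and 45 members above 0, beside 46.7%, 47.6% and 49.5% of all genes. For 36, 34 and 37 of 48 members, both treated libraries lay above both solvent libraries, beside 11.9%, 21.1% and 18.4% of all genes. No gene was called under APR-246 (0% in either direction). At an unadjusted p of 0.05, 29 members passed, beside 1516 of all genes. DESeq2 called 11 members, beside 101 of all genes, and edgeR called no gene. The largest difference was that of GINS2 at 2.18 ± 0.59 (adjusted p = 0.379). After irradiation no member was called, beside 0.0677% of genes higher and 0.00968% lower. Unadjusted, 22 passed, beside 2711 of all genes. edgeR called no member and DESeq2 8, beside 3 and 598 of all genes. POLD1 was largest at 1.81 ± 0.75 (0.314). Under the combination PCNA rose by 1.83 ± 0.34 (0.0341) and MCM4 by 1.81 ± 0.36 (0.0456), beside 0.261% of genes higher and 0.0871% lower. Both calls were lost without any 1 of the 4 libraries. edgeR called no member and DESeq2 16, beside 20 and 633 of all genes.

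In Null the medians were 0.70, 0.44 and 0.80, with 40, 37 and 39 members above 0, beside 49.6%, 49.9% and 47.7% of all genes. Without Null solvent replicate 1 the medians under APR-246 and the combination were 0.45 and 0.53. Here both treated libraries lay above both solvent libraries for 33, 20 and 27 members, beside 18.6%, 18.8% and 18.3% of all genes. Under APR-246 no member was called, beside 0.0290% of genes higher and 0.102% lower. Unadjusted, 14 members passed, beside 1797 of all genes. DESeq2 called 4 members and edgeR none, beside 456 and 5 of all genes. PCNA was largest at 1.49 ± 0.34 (adjusted p = 0.0850). After irradiation no member was called, beside 0.411% and 0.266%. Unadjusted, 10 passed, beside 2437 of all genes. edgeR called no member and DESeq2 3, beside 47 and 733 of all genes. GINS1 was largest at 1.42 ± 0.35 (0.0705). Under the combination MCM4 (1.49 ± 0.36, 0.0437), GINS1 (1.56 ± 0.35, 0.0362), PCNA (1.63 ± 0.34, 0.0262) and FEN1 (1.62 ± 0.36, 0.0360) rose, beside 1.07% of genes higher and 0.876% lower. All 4 calls were lost without any 1 of the 4 libraries. Of the members edgeR called PCNA alone and DESeq2 called 11, beside 133 and 1124 of all genes.

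The response of the members was compared between lines. In 9 comparisons of a treatment's effect between 2 lines, 5 of them added after the data had been seen, limma, edgeR and DESeq2 called no member. Between 0 and 8 members passed an unadjusted p of 0.05, beside 1.05% to 4.89% of all genes. With the GC slope as a covariate limma called CDC6 and RFC4 for the combination in Mutant minus WT and CDC6 in WT minus Null. Of all genes, limma called between 0% and 0.0387% in either direction. The median difference of the members was 0.66 for APR-246 in Mutant minus WT, 0.66 for irradiation and 0.73 for the combination, with 41, 41 and 42 members above 0, beside 46.9%, 46.4% and 48.3% of all genes. The largest single value was that of CDT1 for the combination in Mutant minus WT, 2.02 ± 1.29 (adjusted p = 0.936), which fell to 0.94 with the GC slope as a covariate. GINS2 had the largest for APR-246 in Mutant minus WT (1.54 ± 0.83, adjusted p = 1) and ORC1 for irradiation (1.29 ± 0.73, adjusted p = 1). The APR-246 median was 0.23 without WT APR-246 replicate 1 and 1.08 without replicate 2, and 0.36 without Mutant APR-246 replicate 2. The combination median of WT minus Null was -0.49, with 11 members above 0, beside 53% of all genes.

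Adding APR-246 to irradiation changed no member by the test. Averaged over lines the combination minus irradiation had a median of 0.20 with 41 members above 0, beside 52.7% of all genes tested. Limma and edgeR called 0 of all genes and DESeq2 14, none a member, and 2 members passed unadjusted, beside 1240 of all genes. The largest value was that of POLE2 (0.42 ± 0.21, adjusted p = 0.837), at 3.62 to 4.54 scaled CPM after irradiation (median 4.02) and 3.46 to 7.84 under the combination (5.60). The median was 0.10 for WT (0.37 without TMM scaling), 0.23 for Mutant and 0.29 for Null, with 28, 43 and 41 members above 0, beside 52.8%, 53.2% and 46.9% of all genes. None was called (0% of all genes in each). At an unadjusted p of 0.05, 0, 0 and 2 members passed, beside 849, 405 and 345 of all genes. In WT the differences followed GC content: the Spearman correlation over the 48 genes was -0.90, and 0.33 with the GC slope as a covariate. These points share the same 4 libraries and are not independent. CDT1, at 156 and 500 scaled CPM after irradiation and 109 and 184 under the combination in WT, gave -0.98 ± 0.91 (0.785), which became 0.23 with the GC slope. In Mutant the correlation was -0.77, and in Null 0.52.

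**Figure D5:**
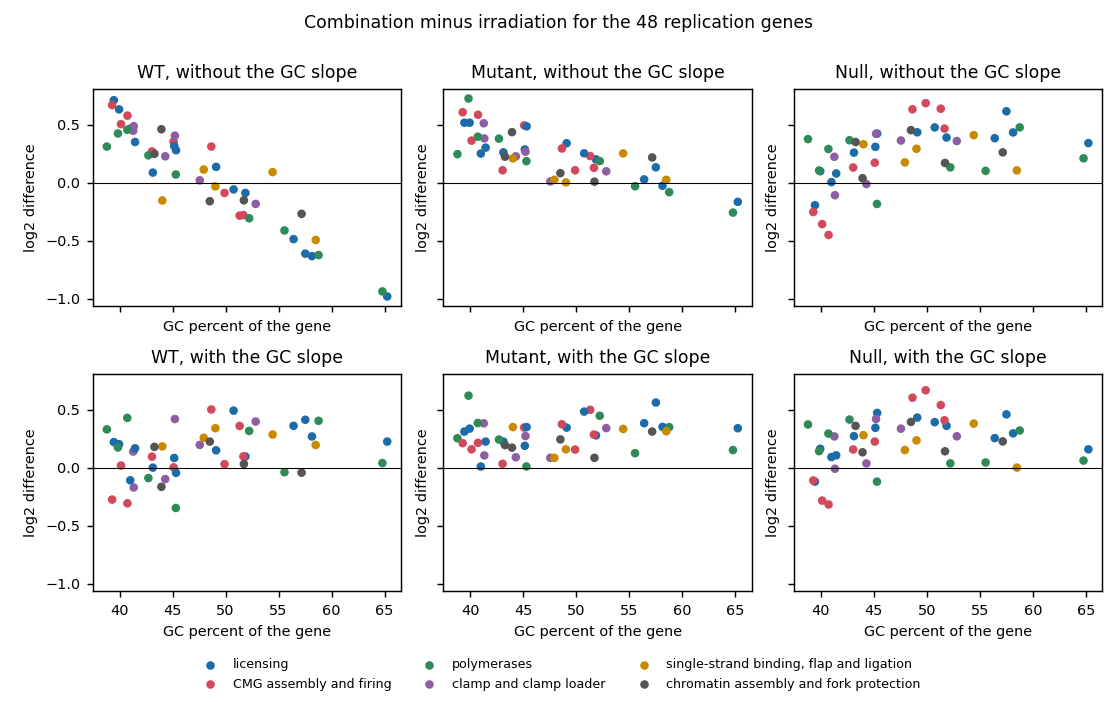
Log2 difference of combination minus irradiation (y axis) against GC percent of the gene (x axis) for the 48 genes, coloured by role, in WT, Mutant and Null, without (top) and with (bottom) each library's GC slope as a covariate. In WT the points fall from upper left to lower right in the top panel (Spearman -0.90), with CDT1 and POLD1 lowest, and lie near or above 0 in the bottom panel.

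The direct comparison of the single treatments gave lower values after irradiation than under APR-246 for most members. Irradiation minus APR-246, averaged over lines, had a median of -0.19 with 6 members above 0, beside 48.3% of all genes tested. No member was called, beside 0.842% of genes higher and 0.0435% lower. Unadjusted, 5 members passed, beside 2111 of all genes. edgeR called no member and DESeq2 1, beside 110 and 514 of all genes. With the GC slope as a covariate 12 members were called, all lower after irradiation, a count given without the share of all genes. The Spearman correlation of this difference with GC percent over the 48 genes was 0.47 without that covariate and -0.56 with it. The covariate thus reversed the relation to GC content and did not remove it. POLA1 had the largest difference (-0.55 ± 0.20, adjusted p = 0.290), at 13.3 to 22.9 scaled CPM under APR-246 (median 20.5) and 10.3 to 16.7 after irradiation (12.5). TIMELESS gave -0.50 ± 0.15 (0.150).

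In solvent the lines differed in 1 member. TIMELESS held 100.3 and 137 scaled CPM in Null, against 52.7 and 51.8 in the WT line and 54.9 and 71.7 in the Mutant line, so WT and Null did not overlap. It was lower in WT than in Null (-1.16 ± 0.26, adjusted p = 0.0372), the 1 call beside 0.624% of genes higher and 0.368% lower in WT. This call was lost without any 1 of the 4 libraries. Mutant minus Null gave -0.90 ± 0.26 (0.0850) for TIMELESS. No member was called there, beside 1.2% and 1.29% of all genes. At an unadjusted p of 0.05, 2 members passed, beside 2380 of all genes. edgeR called no member and DESeq2 1, beside 472 and 962 of all genes. Mutant minus WT called no member, beside 0.213% and 0.416%, with 0 unadjusted, beside 1200 of all genes. edgeR and DESeq2 called no member in Mutant minus WT, beside 92 and 280 of all genes. The largest differences there were those of GINS2, -1.28 ± 0.59 (0.409) against Null and -0.56 ± 0.59 (adjusted p = 1) against WT. The members' medians were -0.03 for Mutant minus WT, -0.20 for WT minus Null and -0.32 for Mutant minus Null.

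Other genes of the pathway and the cell cycle were read from 3 further lists. Of all genes, 1.19% rose under APR-246, 6.84% after irradiation and 7.63% under the combination. Of 30 further replication factors, 5 rose under APR-246 averaged over lines and none fell, with a median of 0.48. Among them TICRR, which brings CDC45 to origins, rose by 0.82 ± 0.16 (adjusted p = 0.0133) and PCLAF, which binds PCNA, by 0.99 ± 0.20 (0.0154). After irradiation 6 rose and 3 fell (median 0.23), the latter RNASEH2B, TOP1 and ASF1A, and under the combination 9 rose and POLD4 fell (median 0.44). Of 20 genes of E2F and G1/S control, 4 rose under APR-246, 5 rose and 1 fell after irradiation, and 7 rose under the combination. Those under APR-246 were CDK2 (0.77 ± 0.14, adjusted p = 0.00878), CCNA2 (0.76 ± 0.16, 0.0156), CDC25A (0.89 ± 0.17, 0.0111) and CDKN2C. CDKN2C had the largest difference of the 4 (1.57 ± 0.31, 0.0133). It also rose after irradiation (1.72 ± 0.31, 0.00236) and under the combination (1.70 ± 0.31, 0.00214). Of 20 G2/M genes 1, KIF20A, rose in each of the 3 comparisons (1.00 ± 0.21, 0.0167, under APR-246), a share below that of all genes after irradiation and under the combination, and the medians were 0.33, 0.13 and 0.17. In WT, CDC25C, the phosphatase that activates CDK1, fell after irradiation (-1.29 ± 0.27, 0.0252).

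Per length, as FPKM, CPM divided by exon length in kilobases, and as the median of 24 libraries, the members spanned 0.655 for POLA2 to 150 for MCM7. CDT1 had 132, POLD2 108 and PCNA 108, while POLD3 had 1.28 and POLE2 1.55. The MCM2-7 subunits, which form the ring in equal number, ranged from 17.9 for MCM6 and 19.1 for MCM4 to 150 for MCM7. ORC2, ORC3, ORC5 and ORC6 lay between 2.78 and 4.03 and ORC1 at 7.21. Exons of MCM7 overlap those of AP4M1 on the opposite strand over 8.94% of their length, exons of FEN1 those of TMEM258 over 6.70%, exons of RFC5 those of WSB2 over 5.72%, and exons of POLA2 those of AP000944.2 on the same strand over 35.1%. Whether the counting used strand is not given in the sources used here, so the levels of MCM7, FEN1 and RFC5 are uncertain to that extent. The same holds for MCM2, GINS4 and GINS3, whose exons overlap antisense genes over 22.7%, 21.2% and 10.9% of their length. Reads in the same-strand overlaps of POLA2, of TIPIN with RPL9P25 (21.0%) and of PRIM1 with AC117378.1 (14.9%) cannot be assigned by strand. The levels of these genes are uncertain as well. Of the 42 members with a promoter in the table, 7 of the 16 that rose under APR-246 averaged over lines had an E2F match, and 14 of the 26 that were not called.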

How the data were processed

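RNA from 24 libraries of HCT116 cells was selected with oligo(dT) and read as paired 100-base ends on a BGIseq500, per the labels' protocols. The submitters' processing notes name FastQC, STAR, featureCounts (Subread) and GRCh38.p13, without roles; versions, annotation release and counting strand are not given in the sources used here. The authors deposited CPM values. Dividing each library by its smallest step gave whole reads for 100% of values within 0.05 of a read. Values of 2 to 9 reads were even in 74.5% to 81.5% of cases, so mates may have been counted singly.

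Members were matched through symbols, and GENCODE 29 gave exon length and GC percent. The unit allowed no count test as the main one. The 20668 genes passing filterByExpr (minimum count 10) were scaled by TMM and tested on log2(scaled CPM + 0.5) with limma-trend 3.58.1 with robust variance (edgeR 4.0.16, R 4.3.3), with 1 coefficient for each of 12 groups, 12 residual degrees of freedom and Benjamini-Hochberg adjustment over all genes. On this scale the change of low genes is understated. Errors are SE. "Averaged over lines" is the mean of 3 within-line contrasts. The script was tested on simulated data. Alternatives were other scalings, pseudocounts (0.1 and 2), no filter, edgeR and DESeq2 1.42.0 on recovered reads, a replicate block, a GC slope per library, each line alone and leaving out each library. The GC slope was measured in the tested values over genes with a mean log2 of at least 2 (98.3% of tested genes have a GC value). Replicate number 1 or 2 pairs libraries in the labels only by number.

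Single-library values are given for members called in a comparison (3 largest and 3 smallest where over 6 were called), the largest where none was, the largest and smallest of each role under APR-246 averaged over lines, and CDC6, CDT1, PCNA, MCM2, GINS2 and ORC1; ORC2 was added after its values were seen. The members and lists were chosen with earlier results of these data known. A check of the lines by 1 gene is not reported here.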

Additional observations from a re-analysis of the deposited data

How the results depend on the processing

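Values here are numbers of the 48 members called, unless a log2 difference is named. Treatments are given against solvent, and "pooled" means averaged over lines. Counts with a replicate block or a GC slope stand without the share of all genes. Without TMM scaling the counts were 1 (irradiation, Mutant), 8 and 2 (combination, Mutant and Null) and 20 (pooled irradiation), and the median of all genes for the combination in WT moved from 0.04 to 0.19. DESeq2 size factors gave 0 for WT minus Null in solvent, and a pseudocount of 0.1 gave 1 for the combination in Mutant. Without a filter the counts were 1 and 1 (combination, Mutant and Null), 11 (pooled APR-246) and 0 (WT minus Null). edgeR called 0 and 1 for the combination in Mutant and Null. DESeq2 called 2 (irradiation, WT), 11, 8 and 16 (APR-246, irradiation and combination, Mutant), 4, 3 and 11 (Null), 21 (pooled irradiation, beside 3799 of all genes), 1 (irradiation minus APR-246) and 1 (Mutant minus Null). With each line fitted alone, the combination called 0 members in each.

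With a replicate block the counts were 2 and 2 (irradiation and combination, WT), 23, 25 and 30 (Mutant), 7, 4 and 20 (Null), 34, 33 and 34 (pooled), 1 (irradiation minus APR-246) and 2 (Mutant minus Null). The labels give only a number: deviations of same-numbered libraries correlated above 0.1 in 55 of 66 pairs of groups (lowest -0.72, median 0.759). With a GC slope the counts were 4 and 7 (WT), 37, 23 and 38 (Mutant), 24, 17 and 26 (Null), 40, 30 and 38 (pooled), 2 (pooled combination minus irradiation), 12 (irradiation minus APR-246), 4 (WT minus Null) and 5 (Mutant minus Null), with 2 and 1 for the combination response in Mutant minus WT and WT minus Null. With the replicate block and GC slope they were 6 and 6 (WT), 38, 33 and 39 (Mutant), 29, 18 and 34 (Null), 40, 36 and 39 (pooled), 3, 4 and 7 (irradiation minus APR-246, WT minus Null, Mutant minus Null), 1 (irradiation response, Mutant minus WT), and 6 and 2 (combination response, Mutant minus WT and WT minus Null). The log2 difference of CDT1 for combination minus irradiation in WT changed sign, to 0.23 with the GC slope and 0.028 with both; the cause was not tested.

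Leaving out 1 library gave 4 to 25 (pooled APR-246), 7 to 13 (pooled irradiation), 13 to 20 (pooled combination), 0 to 2 (combination, WT), 0 (combination, Mutant and Null) and 0 (WT minus Null). The 25 was reached without WT APR-246 replicate 1. With 2 libraries a group, a contrast within 1 line had a median SE of 0.37 on the log2 scale over the members, and one averaged over lines 0.21.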
